A study of Homo sapiens with 15 samples.

Results

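A pair of JIMT-1 lines in which HUNK had been knocked down, KD1 and KD2, were compared with each other. The members were the 4 libraries titled as the first HUNK knockdown line and the 4 titled as the second, 8 of the 15 libraries of the series. JIMT-1 is an established HER2-positive breast cancer cell line. Per the labels both lines were grown in DMEM with 10% fetal bovine serum, glutamine and antibiotics, and both received puromycin, which the labels give as 1 ug/ul. The series title names shRNA as the means of knockdown, and the series also holds control libraries (CTL, n = 4) and libraries of cells treated with the compound HSL119, which were not compared here. Each line stands for 1 knockdown construct, so the construct and the history of a line cannot be told apart. The labels do not say whether the libraries of a line came from 1 population of cells. HUNK itself has no row on the panel, and the extent of knockdown in either line could not be read. The comparison asks how alike the 2 lines were.

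HUNK is a serine/threonine kinase of the family related to AMP-activated protein kinase, studied in HER2-positive breast cancer. An shRNA is processed into a short guide strand that directs degradation of a matching transcript. A guide can also repress other transcripts through partial pairing, and a cell population selected with a drug can drift from its parent, so paired constructs against the same target are commonly set side by side.

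The panel held 758 genes, of which 557 were tested because 4 or more of the 8 libraries gave a linear value over 20, about 4.32 on the log2 scale. All levels below are the deposited log2 normalized counts, and all differences are KD1 minus KD2 on that scale, with n = 4 libraries of each line. Total counts ran from 1442964 to 1561639 per library, and 553 to 567 genes per library exceeded the floor. The epithelial and HER2 genes ERBB2, GRB7, CDH1 and KRT7 were all far above it in both lines, and ERBB2 lay between 12.52 and 12.89. Markers of fibroblasts, endothelium, adipocytes, T and NK cells, B cells and myeloid cells summed to linear values of 19.9 to 467 per list and library. The 4 epithelial genes summed to 36021 to 48308. No tested marker was called between the lines. Tested were 2 of 5 fibroblast, 2 of 6 endothelial, 2 of 6 T and NK and 2 of 4 myeloid genes on the panel. The 2 adipocyte and 2 B-cell genes were not tested and could not be called.

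The 8 libraries did not form 4 equally spaced replicates of each line. Libraries 1 and 2 of a line were near-duplicates, their counts differing by a chi-square over its degrees of freedom of 1.19 in KD1 and 1.34 in KD2, and so were libraries 3 and 4 of KD1, at 1.24. Libraries 3 and 4 of KD2 differed more, at 19.7. Between libraries 1 and 2 on the one side and 3 and 4 on the other, the value was 111 to 143 within a line, while KD1 and KD2 libraries of the same pair differed by 21.1 to 38.0. The first principal component, with 66.8% of the variance, separated libraries 1 and 2 from 3 and 4 in both lines, and the second, with 19.2%, separated KD1 from KD2. The distance between the lines was therefore smaller than the distance between the library pairs, and it had to be read within a pair. Whether the members of a pair are repeat measurements of a single culture is not given in the labels, so all p-values below measure only the spread between these libraries.

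**Figure D1:**
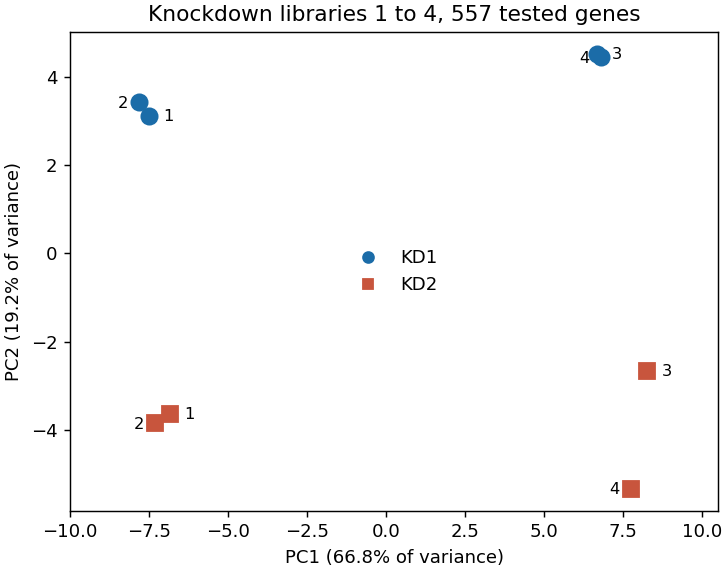
The 8 knockdown libraries on the first (x axis, 66.8% of variance) and second (y axis, 19.2%) principal components of the 557 tested genes; circles are KD1, squares KD2, and numbers are the replicate numbers. Libraries 1 and 2 of both lines sit on the left and 3 and 4 on the right, with KD1 above KD2 in each pair and KD2 libraries 3 and 4 apart from each other.

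In limma without a block, 9 genes passed an adjusted p of 0.05 (1.62% of those tested). FGF13, CACNA2D3, HEG1 and KRT5 were higher in KD1 (0.718%), and VIM, S100A7, TLR4, GNG4 and BAIAP2L1 were higher in KD2 (0.898%), a split of 4 against 5 that was 6 against 5 under median-of-ratios scaling. With the replicate number as a block, which removes the distance between library pairs, 145 genes passed (26%), 79 of them higher in KD1 (14.2%) and 66 higher in KD2 (11.8%), and they included all 9. All 145 had the same sign in each of the 4 same-numbered pairs of libraries, a property that 265 of the 557 tested genes had. The libraries of each pair were also averaged, so that each line had 2 values. This included libraries 3 and 4 of KD2, which were not near-duplicates. Averaging left 0 calls in limma without a block, with 20 at an unadjusted p under 0.05. With the library pair as a block it left 119 calls. Without a block, VIM was the 1 gene left when replicate 1, 2 or 4 of KD1 or replicate 1 or 2 of KD2 was removed, and 2 genes were left without replicate 3 of KD1. With the block, removing replicate 3 of either line left 63 calls, replicate 2 left 72, and replicate 1 left 88 or 91, while removing replicate 4 of KD1 or KD2 gave 182 or 185. Where a gene is called higher or lower below, the call is that of the fit with the replicate block unless stated otherwise.

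Most differences were small. The median difference over the 557 genes was -0.0041 and their SD 0.33, and the median size of the 145 called differences was 0.41. Only 11 genes differed by more than 2-fold, 3 of them higher in KD1 (EREG, FHL1 and FGF13) and 8 higher in KD2 (VIM, S100A7, IL1B, TLR4, FOS, PLCE1, CXCL10 and NGFR). TLR4 and PLCE1 were near the floor in KD1. Counts were also low for IL1B (23 to 39) and CXCL10 (30 to 56) in KD1 and for FGF13 (26 to 33) in KD2. The 90% interval of the difference lay within 1.5-fold either way for 439 genes (78.8%) with the replicate block and for 339 (60.9%) without it, and 78 of the 145 called genes were among the 439. All 4 libraries of one line lay beyond all 4 of the other in 84 genes (15.1%), 44 higher in KD1 (7.9%) and 40 higher in KD2 (7.18%).

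**Figure D2:**
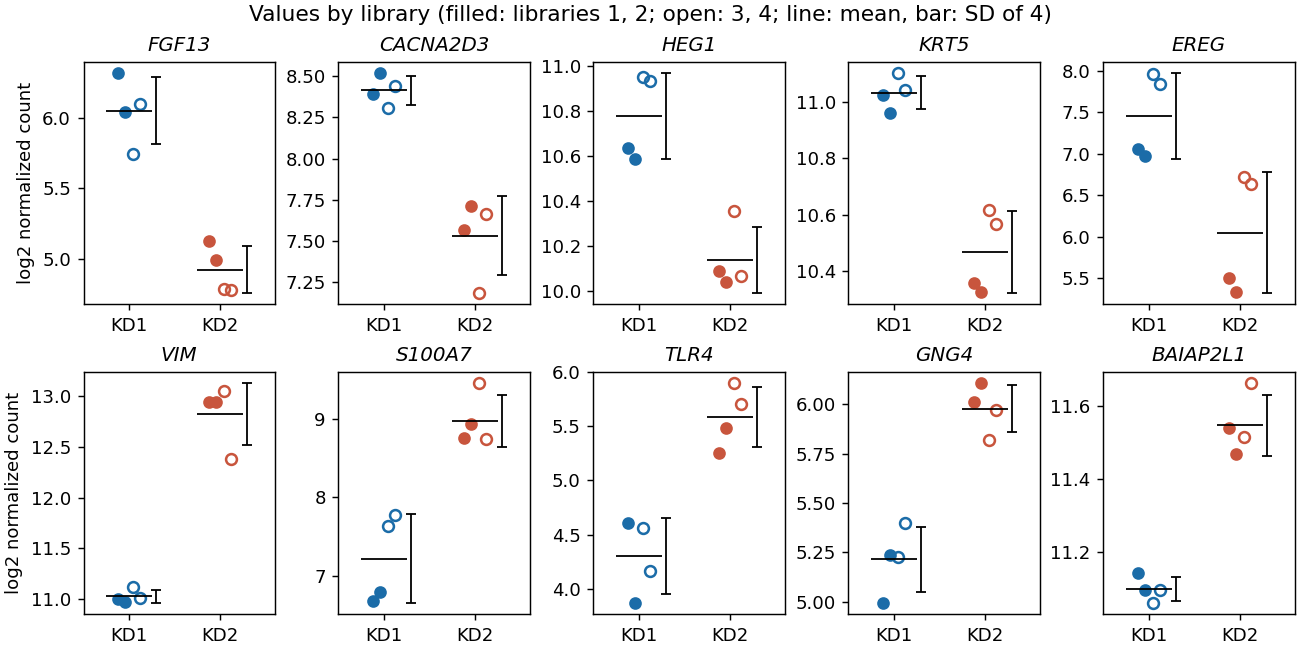
Deposited log2 normalized counts (y axis) of 10 genes in the 4 libraries of KD1 and KD2 (x axis); filled points are libraries 1 and 2, open points 3 and 4, lines are means and bars SDs of the 4 libraries. In all 10 genes the lines do not overlap. Non-overlap was part of the rule that chose all of them but EREG, and 15.1% of tested genes had it. For EREG and S100A7 the distance between library pairs is also visible within KD1.

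The largest difference was that of an intermediate filament gene. VIM encodes vimentin, the filament protein of mesenchymal cells. It stood at 11.003, 10.969, 11.116 and 11.008 in KD1 and at 12.944, 12.940, 13.051 and 12.376 in KD2. Every KD2 library lay above every KD1 library by more than 1 log2 unit, with library 4 of KD2 the lowest of that line. The difference was -1.80 (SE 0.15, adjusted p = 0.00102 without a block), a 3.49-fold higher level in KD2, and -1.96 within libraries 1 and 2 and -1.65 within 3 and 4. CTL libraries held 10.64 to 10.72 on the deposited scale, on which CTL carries a constant offset that the knockdown libraries lack. KRT5, a keratin of basal epithelial cells, went the other way, at 11.02, 10.96, 11.10 and 11.04 in KD1 and 10.36, 10.33, 10.62 and 10.57 in KD2. The groups did not overlap, and the difference was 0.57 (SE 0.09, adjusted p = 0.0236 without a block). KRT17, another basal keratin, was near the floor in KD1, at 4.15 to 4.49, and higher in KD2, at 4.78 to 5.26 (difference -0.74, adjusted p = 0.0208 with the block).

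Among 15 tested mesenchymal and EMT genes, 4 were called higher in KD2 and 0 higher in KD1. The called share was near the 26% of all tested genes called in either direction, and 11.8% were called higher in KD2. The list's median difference was -0.08 against -0.0041 over all tested genes. Beside VIM the called genes were TGFB1, a cytokine that induces EMT (-0.50), TWIST1, a transcription factor of the programme (-0.49), and MMP14, a membrane-bound matrix metalloproteinase (-0.38). TWIST1 read 6.93, 6.69, 6.57 and 6.66 in KD1 and 7.20, 7.41, 7.08 and 7.13 in KD2, without overlap, whereas TGFB1 in library 4 of KD2, at 9.80, fell inside the KD1 range. CDH2, which encodes N-cadherin, differed by -0.20 (adjusted p = 0.0942) and SNAI1, a repressor of E-cadherin, by 0.08 (adjusted p = 0.563). E-cadherin itself, CDH1, was at 12.67 to 12.73 in KD1 and 12.63 to 12.75 in KD2, with a 95% interval of the difference from -0.10 to 0.06. Leaving out replicate 2 or 3 of either line left 1 called gene of the 15. Of 9 epithelial junction genes, 1 was called against 26% of all tested genes, the tight junction gene OCLN at 0.37 (SE 0.08) higher in KD1, and the median was 0.06.

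Of 13 basal genes 6 were called and of 13 luminal and hormone receptor genes 2, against 26% of all tested genes. Among the basal genes, KRT5, PHGDH, FOXC1 and CDH3 were higher in KD1 and KRT17 and SFRP1 higher in KD2, with a median of 0.09. PHGDH, the first enzyme of serine synthesis, lay between 11.06 and 11.11 in KD1 and between 10.69 and 10.94 in KD2. SFRP1, a secreted Wnt inhibitor, was 12.49, 12.40, 13.24 and 13.24 in KD1 and 13.01, 12.94, 13.57 and 13.56 in KD2, so that KD2 was higher within each pair while the groups overlapped across pairs (difference -0.43, SE 0.05). Among the luminal genes, GATA3, a luminal transcription factor, was higher in KD1 by 0.28 (SE 0.04) and ESR1, the oestrogen receptor gene, lower by -0.41 (SE 0.08). ESR1 levels were modest in both lines, at 7.22 to 7.97 in KD1 and 7.66 to 8.42 in KD2.

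Interferon response genes were higher in KD2. Of 6 tested, 5 were called higher in KD2 and 0 in KD1, against 11.8% of all tested genes in that direction and 26% in either. The median difference was -0.52, with -0.52 within libraries 1 and 2 and -0.60 within 3 and 4. The count was 4 or 5 when any single library was left out and 5 or 6 under the other scalings. ISG15, a ubiquitin-like protein induced by interferon, was 11.12, 11.04, 11.75 and 11.73 in KD1 and 11.92, 11.87, 12.47 and 12.64 in KD2. Every KD2 library lay above every KD1 library, and libraries 3 and 4 were above 1 and 2 in both lines. The difference was -0.81 (SE 0.04, adjusted p = 9.78e-05) and was -0.81 in both pairs. OAS3, a sensor of double-stranded RNA that activates RNase L, differed by -0.74 (SE 0.06), also -0.74 in both pairs. CXCL10, a chemokine induced by interferon-gamma, was 5.89, 4.97, 5.42 and 5.50 in KD1 and 6.74, 6.56, 6.43 and 6.21 in KD2, without overlap (-1.04, SE 0.17). RARRES3, a phospholipase also induced by retinoids, differed by -0.29 (SE 0.05). None of the 5 passed without the block, where the adjusted p was 0.124 for ISG15 and 0.0514 for CXCL10.

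The promoters of the interferon genes with the largest differences are shown because these genes moved together between the lines. They are RefSeq sequences of GRCh38.p14 from 250 bases before to 50 after the gene's start, 5' to 3' on the gene's strand, with ISG15 at chr1:1013247-1013546 (+), OAS3 at chr12:112938224-112938523 (+) and CXCL10 at chr4:76023448-76023747 (-). Capitals mark matches to GAAA, any 2 bases and GAAA again, a core of the interferon-stimulated response element, on either strand. The runs of 2 overlapping matches in ISG15 are printed as a single run.
ISG15: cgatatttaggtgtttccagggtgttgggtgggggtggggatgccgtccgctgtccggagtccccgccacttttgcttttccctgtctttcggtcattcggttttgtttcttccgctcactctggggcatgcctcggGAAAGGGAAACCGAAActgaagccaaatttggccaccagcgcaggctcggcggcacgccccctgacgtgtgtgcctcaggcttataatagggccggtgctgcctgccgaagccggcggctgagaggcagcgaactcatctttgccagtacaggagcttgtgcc
OAS3: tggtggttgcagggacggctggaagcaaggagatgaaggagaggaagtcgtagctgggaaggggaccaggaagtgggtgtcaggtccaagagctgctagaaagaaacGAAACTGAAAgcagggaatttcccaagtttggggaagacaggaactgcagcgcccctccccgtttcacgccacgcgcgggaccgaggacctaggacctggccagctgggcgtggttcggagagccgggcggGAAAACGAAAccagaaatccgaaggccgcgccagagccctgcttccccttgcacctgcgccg
CXCL10: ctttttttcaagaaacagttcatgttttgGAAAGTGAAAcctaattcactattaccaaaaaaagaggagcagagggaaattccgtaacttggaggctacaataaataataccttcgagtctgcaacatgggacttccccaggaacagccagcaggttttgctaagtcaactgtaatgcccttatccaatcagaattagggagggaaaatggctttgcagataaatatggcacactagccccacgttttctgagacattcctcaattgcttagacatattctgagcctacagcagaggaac
ISG15 and OAS3 had 2 matches each and CXCL10 had 1. Of 35116 promoters of the same length, 3.57% held the motif. Sequences were in the table for 3 of the 5 called genes. A match describes the letters and not a bound site.

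The inflammatory list had a median of -0.44 over all libraries, but -0.06 within libraries 1 and 2 and -0.78 within 3 and 4. Of 8 tested, 3 were called higher in KD2 and 0 in KD1, against 11.8% of all tested genes in that direction and 26% in either. IL1B, the inflammatory cytokine interleukin 1 beta, was 4.89, 5.35, 4.62 and 4.66 in KD1 and 6.71, 6.56, 5.62 and 6.24 in KD2. The groups did not overlap, the difference was -1.40 (SE 0.17, adjusted p = 0.00207), and without the block the adjusted p was 0.0514. IL6, a cytokine that signals through STAT3, was 8.97, 9.01, 9.14 and 9.19 in KD1 and 9.39, 9.45, 10.06 and 10.91 in KD2. Library 4 of KD2 was the highest, and the difference was -0.43 within libraries 1 and 2 and -1.32 within 3 and 4. CCL5, a T-cell chemokine, differed by -0.73 (SE 0.12) with overlap across pairs. Leaving out library 4 of either line drops the fourth pair from the blocked fit. In both cases the list's median moved to -0.19 while 3 genes were still called. TLR4, the receptor for bacterial lipopolysaccharide, was close to the floor in KD1, at 4.61, 3.87, 4.56 and 4.16, and higher in KD2, at 5.25, 5.48, 5.90 and 5.70 (-1.28, SE 0.22, adjusted p = 0.0266 without a block). Its counts were 14 to 23 in KD1 and 36 to 56 in KD2. LTB, lymphotoxin beta, was lower in KD1 by -0.92 (SE 0.09) and NGFR, the low-affinity nerve growth factor receptor, by -1.03 (SE 0.12), each within both pairs.

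Class I antigen presentation genes were close between the lines. Of 13 tested, 3 were called higher in KD2, among them HLA-E (-0.16) and HLA-B (-0.14), by 1.12- and 1.10-fold. That share was near the 26% of all tested genes called in either direction, while 11.8% were called higher in KD2. The list's median was -0.05. None of the 3 was called when any of replicates 1, 2 or 3 was left out. All 5 tested checkpoint genes were uncalled, and CD274, which encodes PD-L1, differed by 0.04 with a 95% interval from -0.13 to 0.20.

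**Figure D3:**
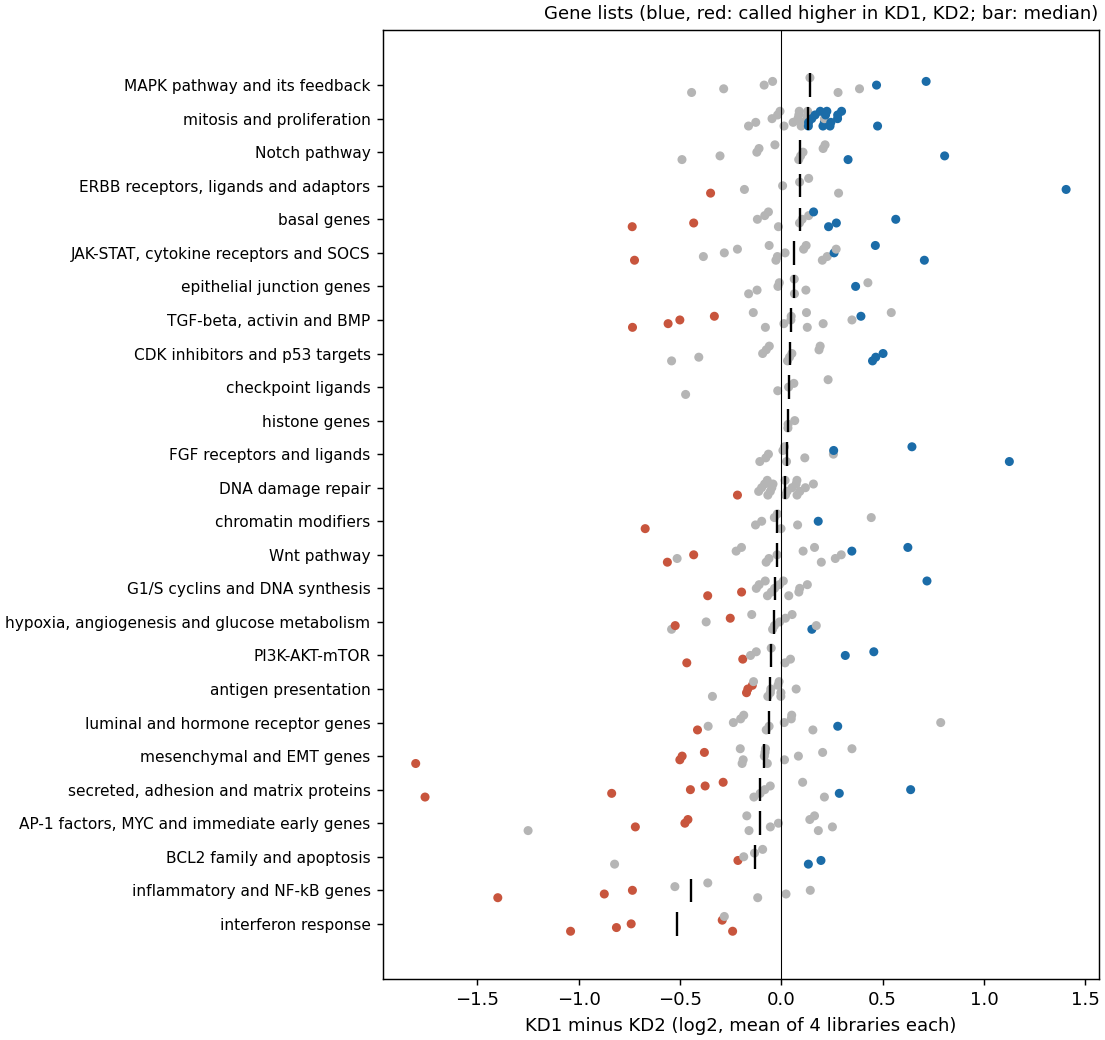
Each point is a tested gene of the list on the y axis at its difference between the lines (x axis, KD1 minus KD2, log2, mean of 4 libraries each); blue and red points were called higher in KD1 or KD2 with the replicate block, and bars are list medians. The interferon list has a median of -0.52, close to that in each library pair, whereas the inflammatory median of -0.44 comes from -0.06 in libraries 1 and 2 and -0.78 in 3 and 4, and 15 of the 31 mitosis genes were called, all higher in KD1.

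Of 7 ERBB receptor, ligand and adaptor genes 2 were called, and of 9 MAPK genes 2, shares near the 26% of all tested genes. EREG, the ERBB ligand epiregulin, was 7.05, 6.97, 7.96 and 7.85 in KD1 and 5.51, 5.33, 6.72 and 6.64 in KD2. Each KD1 library was above every KD2 library, and libraries 3 and 4 were higher than 1 and 2 in both lines. The difference was 1.41 (SE 0.12, adjusted p = 0.000773), a 2.65-fold higher level in KD1, with an adjusted p of 0.118 without the block. EGF, another ligand of EGFR, went the other way, at 8.25 to 8.40 in KD1 and 8.44 to 8.83 in KD2 (-0.35, SE 0.08). ERBB2 differed by 0.09, with a 95% interval from 0.01 to 0.17 and an adjusted p of 0.0843. The called MAPK genes, both higher in KD1, were DUSP4, a phosphatase that inactivates ERK, and ETV4, an ETS transcription factor downstream of ERK. ETV4 was 11.41 to 11.88 in KD1 and 11.07 to 11.28 in KD2 (0.47, SE 0.05). DUSP4 was 10.78, 10.71, 11.29 and 11.29 in KD1 and 9.56, 9.61, 10.90 and 11.14 in KD2, a difference of 0.71 (SE 0.18) that lay mainly in libraries 1 and 2, at 1.16 against 0.27 in libraries 3 and 4.

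Of 11 FGF family and related receptor genes tested, 3 were called higher in KD1 and 0 in KD2. The called share was near the 26% of all tested genes called in either direction, while 14.2% were called higher in KD1. The list's median was 0.03. FGF13, an intracellular member that binds sodium channels and microtubules, was 6.32, 6.04, 5.74 and 6.10 in KD1 and 5.13, 4.99, 4.79 and 4.79 in KD2. The groups did not overlap, and the difference was 1.13 (SE 0.16, adjusted p = 0.0236 without a block) and nearly equal in the pairs, at 1.12 and 1.13. FGFR3, a receptor of the family, differed by 0.64 (SE 0.10), and IGF1R, the receptor for insulin-like growth factor 1 kept in the same list, by 0.26 (SE 0.07).

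Mitosis genes were called in 1 direction only. Of 31 mitosis and proliferation genes, all tested, 15 were called higher in KD1 and 0 in KD2. Over all tested genes 14.2% were called higher in KD1 and 26% in either direction. The differences were small, with a median of 0.13 and a largest value of 0.48. ANLN, which encodes the cytokinesis scaffold anillin, was 13.88, 13.83, 13.64 and 13.63 in KD1 and 13.53, 13.52, 13.08 and 12.94 in KD2, and the groups did not overlap (0.48, SE 0.06). AURKA, a spindle pole kinase, differed by 0.30 (SE 0.03), TTK, a spindle checkpoint kinase, by 0.28 (SE 0.07) and CDC25C, the phosphatase that activates CDK1, by 0.28 (SE 0.06). None of the 15 passed without a block, and the count was 4 without replicate 3 of either line, 6 without replicate 2, 8 without replicate 1, and 17 or 18 without replicate 4. Promoter sequences were available for 11 of the 15. Of these genes, 8 held CCAAT on either strand within 250 bases before to 50 after the start, in at least 1 promoter. The share over single promoters of all genes was 34.6%, which is a different unit. The uncalled mitosis genes were not examined.

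Of 15 G1/S and DNA synthesis genes, CCND1 was higher in KD1 and CDK6 and RRM2 were higher in KD2, against 26% of all tested genes called, with a median of -0.03. CCND1, which encodes cyclin D1, was 11.80, 11.75, 12.75 and 12.73 in KD1 and 10.81, 10.73, 12.20 and 12.42 in KD2. KD1 was higher within each pair, and libraries 3 and 4 of KD2 lay above libraries 1 and 2 of KD1 (0.72, SE 0.12). CDK6, a partner of cyclin D, differed by -0.36 (SE 0.06) and RRM2, a subunit of ribonucleotide reductase, by -0.20 (SE 0.03). Of 13 CDK inhibitor and p53 target genes, 3 inhibitors were called higher in KD1, namely CDKN2C (0.50, SE 0.07), CDKN2B (0.47, SE 0.06) and CDKN1B (0.45, SE 0.07). The called share was near the 26% of all tested genes called in either direction, while 14.2% were called higher in KD1. The list's median was 0.04. CDKN2C, the p18 inhibitor of CDK4 and CDK6, was 8.96 to 9.13 in KD1 and 8.39 to 8.75 in KD2 without overlap. CDKN1A, the p53 target p21, was not called, at -0.41 with an adjusted p of 0.0639.

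**Figure D4:**
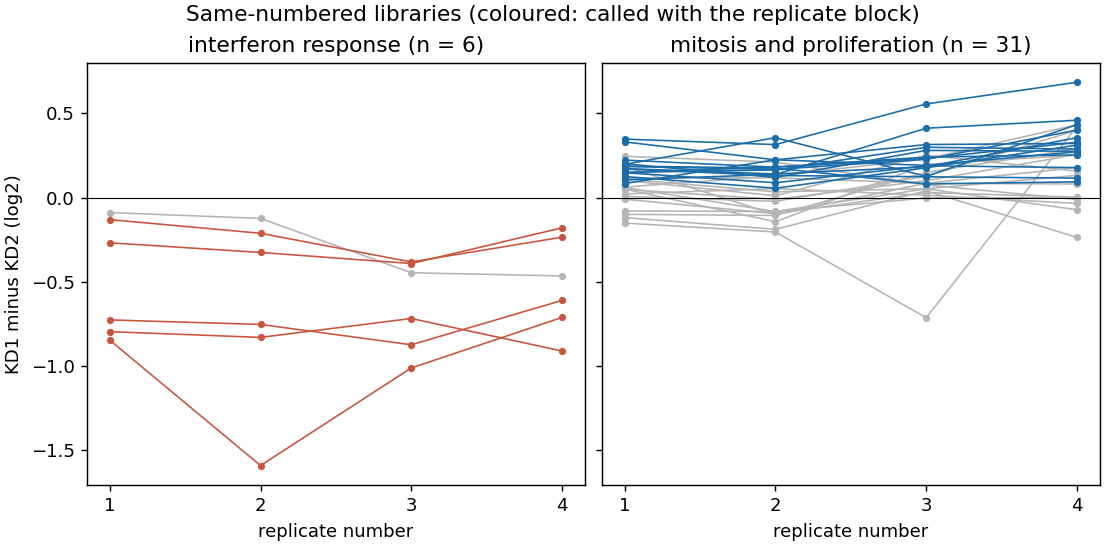
Difference between same-numbered libraries (y axis, KD1 minus KD2, log2) for replicate numbers 1 to 4 (x axis, which have no order) of the 6 interferon genes (left) and 31 mitosis genes (right); a line joins the values of 1 gene, and coloured genes were called with the replicate block. The 5 called interferon genes are below 0 in all 4 pairs, and the 15 called mitosis genes above 0 in all 4. All 145 genes called with the block had the same sign in all 4 pairs, so this is not particular to these lists.

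Of 15 TGF-beta, activin and BMP genes, 4 were called higher in KD2 (BAMBI, BMP7, TGFB1 and SMAD3), against 11.8% of all tested genes, and 1, INHBA, higher in KD1, against 14.2%, while the median was 0.05. BAMBI, a decoy receptor that blocks TGF-beta signalling, was 10.04, 10.09, 10.44 and 10.38 in KD1 and 10.41, 10.59, 11.44 and 11.44 in KD2. Both KD2 pairs lay above their KD1 pairs, by -0.44 and -1.03. BMP7, a bone morphogenetic protein, differed by -0.56 (SE 0.08), SMAD3, a signal transducer of TGF-beta, by -0.33 (SE 0.05) and INHBA, the activin A subunit, by 0.39 (SE 0.07). ID2 and ID4, inhibitors of basic helix-loop-helix factors and targets of BMP signalling, were lower in KD1 by -0.72 (SE 0.21) and -0.48 (SE 0.12). ID2 spanned 3.66 to 7.06 in KD1 and 4.79 to 7.41 in KD2, so its libraries differed more by pair than by line.

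Of 15 Wnt genes 4 were called and of 12 Notch genes 2, against 26% of all tested genes. In the Wnt list, WNT5A (0.62, SE 0.17) and WNT7B (0.35, SE 0.08), both ligands, were higher in KD1, and TCF7L1, a repressor of Wnt targets, was higher in KD2 (-0.56, SE 0.13) together with SFRP1. In the Notch list, the receptors NOTCH3 (0.81, SE 0.18) and NOTCH1 (0.33, SE 0.09) were higher in KD1. NOTCH3 was 9.15, 9.14, 8.45 and 8.34 in KD1 and 8.64, 8.66, 7.79 and 6.77 in KD2, with library 4 of KD2 the lowest. HES1, a Notch target, was not called, at -0.49 with an adjusted p of 0.203.

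Secreted, adhesion and matrix genes were called in both directions, 5 higher in KD2 and 2 higher in KD1 of 13 tested, against 11.8% and 14.2% of all tested genes. S100A7, the calcium-binding protein psoriasin, was 6.67, 6.79, 7.64 and 7.77 in KD1 and 8.76, 8.94, 9.46 and 8.74 in KD2. All KD2 libraries lay above all KD1 libraries, and the difference was -1.76 (SE 0.30, adjusted p = 0.0266 without a block), 3.38-fold. It was -2.12 in libraries 1 and 2 and -1.40 in libraries 3 and 4. SRPX, a sushi-repeat protein, differed by -0.84 (SE 0.10) and NRCAM, a neuronal adhesion molecule, by -0.45 (SE 0.08), both without overlap. HEG1, a transmembrane protein of cell junctions, was 10.63, 10.59, 10.95 and 10.93 in KD1 and 10.09, 10.04, 10.36 and 10.07 in KD2 (0.64, SE 0.12, adjusted p = 0.0437 without a block). The lowest KD1 library was above the highest KD2 library.

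The remaining genes named for the size of their difference are given 1 by 1. CACNA2D3, an auxiliary subunit of voltage-gated calcium channels, was 8.39, 8.52, 8.31 and 8.44 in KD1 and 7.57, 7.71, 7.18 and 7.66 in KD2, without overlap (0.89, SE 0.13, adjusted p = 0.0236 without a block). CACNA1D, a pore-forming subunit, was higher in KD1 within each pair (0.86, SE 0.16). FHL1, a LIM-domain protein, was 8.73, 8.55, 8.41 and 8.36 in KD1 and 7.75, 7.89, 7.05 and 6.73 in KD2 without overlap, and the difference was 1.16 (SE 0.16), 0.83 in libraries 1 and 2 and 1.5 in 3 and 4. ARNT2, a partner of PAS-domain transcription factors, was higher in KD1 by 0.77 (SE 0.10) and MMP11, a matrix metalloproteinase, by 0.74 (SE 0.15). In KD2, PLCE1, a phospholipase C, was higher (-1.04, SE 0.16). Its counts were 14 to 24 in KD1, near the floor, and 31 to 48 in KD2. GNG4, a G protein gamma subunit, was also higher in KD2 (-0.76, SE 0.13 without a block, adjusted p = 0.0266). BAIAP2L1, an actin-binding protein of membrane protrusions, was 11.14, 11.10, 11.06 and 11.10 in KD1 and 11.54, 11.47, 11.52 and 11.66 in KD2. Its difference was small, at -0.45, but the spread within each line was smaller still (SE 0.07, adjusted p = 0.0236 without a block).

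The other lists were called in both directions, with 26% of all tested genes as the background. Of 9 PI3K pathway genes, 2 were called in each direction, among them PIK3CD (0.46), a catalytic subunit, higher in KD1, and PIK3R3 (-0.47) and PIK3CA (-0.19), a regulatory and a catalytic subunit, higher in KD2. Of 16 JAK-STAT and cytokine receptor genes, the leptin receptor LEPR (0.71) and the feedback inhibitors SOCS3 (0.46) and SOCS2 (0.26) were higher in KD1 and the prolactin receptor PRLR (-0.72) was higher in KD2. PRLR lay near the floor in both lines. Of 12 hypoxia and glucose metabolism genes, HIF1A (0.15) was higher in KD1 and EPAS1 (-0.25), its paralogue, and EGLN3 (-0.52), a prolyl hydroxylase, were higher in KD2. Of 7 apoptosis genes 3 were called, of which the inhibitors of death BCL2L1 (0.20) and BIRC5 (0.13) were higher in KD1 and the effector BAX (-0.21) in KD2. BIRC5 also counts in the mitosis list.

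HDAC1, a histone deacetylase, showed how the pairs and the lines combined. It was 11.65, 11.63, 12.58 and 12.58 in KD1 and 12.34, 12.32, 13.23 and 13.23 in KD2. KD2 was higher within each pair by -0.69 and -0.65, and libraries 3 and 4 were higher in both lines, so the adjusted p was 9.78e-05 with the block and 0.379 without it. It was 1 of 2 called genes among 9 chromatin modifiers, against 26% of all tested genes. The other was ARID1A, a subunit of the SWI/SNF remodeller, at 0.18 higher in KD1. Of 12 AP-1, MYC and immediate early genes, GADD45A (-0.46), a stress-induced gene, ID2 and ID4 were called higher in KD2. No member was called higher in KD1. Over all tested genes 11.8% were called higher in KD2 and 26% in either direction. DNA repair genes differed little. Of 19 tested, 1 was called, against 26% of all tested genes, namely POLQ, the polymerase of theta-mediated end joining (-0.22). The median was 0.02, and all differences lay between -0.22 and 0.16. BRCA1 differed by 0.03 with a 95% interval from -0.14 to 0.20 and BRCA2 by -0.05 with an interval from -0.21 to 0.10. All 3 histone genes on the panel were uncalled.

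The 5 genes with the highest mean level were also close. The 95% intervals given for them are those of the fit with the replicate block, which removes the distance between library pairs. CD44, a hyaluronan receptor, was 15.91 to 16.03 in KD1 and 15.96 to 16.12 in KD2, with an interval of the difference from -0.14 to 0.01. For the kinase gene CDK4 the interval ran from -0.11 to 0.01, for the translation repressor EIF4EBP1 from -0.11 to 0.13, and for the glycolytic genes ENO1 and PGK1 from -0.03 to 0.14 and from -0.12 to 0.10. The KD1 and KD2 ranges overlapped in each of the 5. CDK4 and ENO1 were higher in libraries 3 and 4 than in 1 and 2 in both lines, so there too the pair moved the level more than the line did.

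The comparison was then made within each library pair. The error was the spread between the libraries of a pair, pooled over both pairs of both lines. Libraries 3 and 4 of KD2, which were not near-duplicates, entered that error for both pairs. Within libraries 1 and 2, 128 genes passed (23%), 69 higher in KD1, and within libraries 3 and 4, 171 passed (30.7%), 93 higher in KD1. Centring each library on its median changed the first split to 46 higher in KD1 of 105. Removing a library of the first pair left 46 to 60 calls there, and removing replicate 3 or 4 of KD2 gave 258 or 259. Removing replicate 3 or 4 of KD1 left 80 or 58 calls in the second pair, and removing replicate 3 of KD2 gave 282. In both pairs 86 genes were called with the same sign and 1 with opposite signs. The other calls were in a single pair, 41 in libraries 1 and 2 and 84 in libraries 3 and 4, which does not show that those differences were unequal. Over all tested genes the sign was the same in both pairs for 388 (69.7%), and across genes the 2 sets of differences had a Pearson correlation of 0.67, as a description of genes that are not independent.

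**Figure D5:**
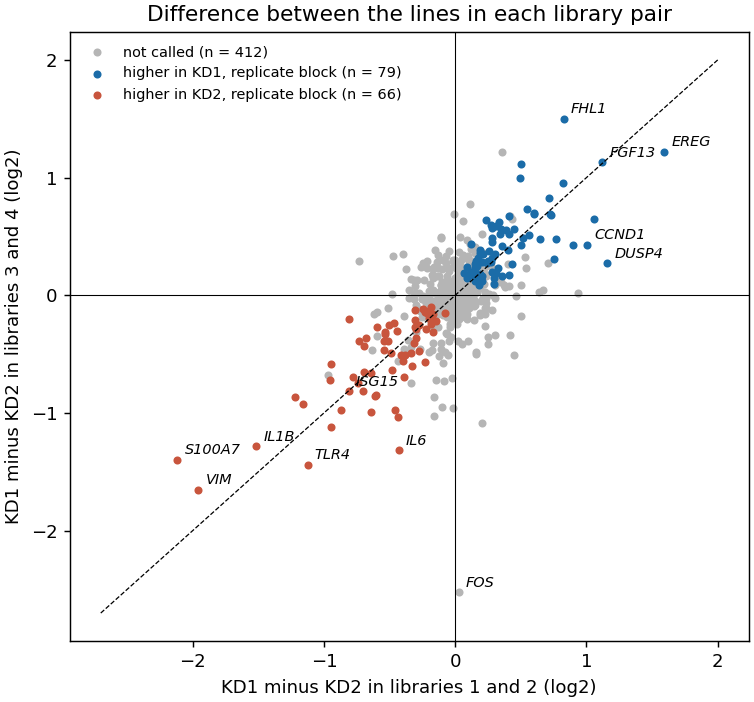
Difference between the lines (KD1 minus KD2, log2) in libraries 1 and 2 (x axis) and in libraries 3 and 4 (y axis) for the 557 tested genes; coloured points were called with the replicate block (79 higher in KD1, 66 higher in KD2), and the dashed line marks equal differences. Called genes lie at the lower left and upper right, with DUSP4 and CCND1 to the right of the line, while FOS lies near 0 in libraries 1 and 2 and at -2.52 in libraries 3 and 4.

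The test of the difference itself, libraries 3 and 4 minus libraries 1 and 2, called 6 genes (1.08%), 1 with a positive and 5 with a negative value. The positive ones were 2 of 6 after centring on library medians, 4 of 11 under median-of-ratios scaling and 13 of 24 after quantile normalization. MYC, a transcription factor that drives growth, was 13.066, 13.052, 12.788 and 12.760 in KD1 and 12.753, 12.751, 12.999 and 13.218 in KD2. It was higher in KD1 by 0.31 in libraries 1 and 2 and higher in KD2 by -0.33 in libraries 3 and 4, and the mean difference was -0.01. CDKN1A was 9.63, 9.58, 9.33 and 9.31 in KD1 and 9.63, 9.74, 10.00 and 10.09 in KD2, so the lines met in libraries 1 and 2 (-0.09) and differed in 3 and 4 (-0.73). TGFB2, a TGF-beta ligand, showed the same layout in the other direction, with 0.06 in libraries 1 and 2 and 0.64 in 3 and 4. For CCND1 and DUSP4 the KD1 excess was 1.01 and 1.16 in libraries 1 and 2 and 0.43 and 0.27 in 3 and 4. BAMBI was the sixth. These calls were 0 when any KD1 library or replicate 1 of KD2 was left out, 1 without replicate 2 of KD2, 69 without replicate 4 and 181 without replicate 3 of KD2.

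Libraries 3 and 4 of KD2 differed from each other by more than 2-fold in 12 genes, against 2 to 4 genes in the other pairs. The genes given here were chosen after their values were seen. FOS, an immediate early transcription factor of AP-1, was 5.97 in library 3 and 9.74 in library 4 of KD2, against 5.38 and 5.29 in KD1, while libraries 1 and 2 of both lines held 10.34 to 10.43. HES1 stood at 9.45 and 10.77 in KD2 libraries 3 and 4, against 9.14 and 9.16 in KD1. In both genes library 4 of KD2 lay between the other libraries numbered 3 and 4 and the libraries numbered 1 and 2. FOS differed by -1.25 between the lines, with a 95% interval in the blocked fit from -2.95 to 0.46, and was not called. With the replicate block, 185 genes were called without library 4 of KD2 and 182 without library 4 of KD1, since either removal drops the fourth pair.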

How the data were processed

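Gene expression was measured on a fixed panel, which the labels class as an array. Log2 values of a normalized count, named so in the headers, were tested as the authors deposited them. The linear signal deposited beside them, a normalized count per the file headers, gave the floor for low values. The normalization and the instrument are not given in the sources used here. In the knockdown libraries the log2 block equalled the log2 of the linear block. The linear values of the 8 knockdown libraries came out as whole counts within 0.01 for 100% of values, and edgeR 4.0.16 on these counts called 13 genes, or 152 with the replicate block.

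The lines were compared by limma 3.58.1 under R 4.3.3 (lmFit, eBayes with a trend, two-sided, Benjamini-Hochberg over 557 genes, threshold 0.05) on the 8 libraries, and 201 genes with a linear value over 20 in fewer than 4 libraries were not tested. The replicate number, taken from the titles, was used as a block, and blocked values are given. Deviations from the line means correlated between same-numbered libraries at 0.80, 0.81, 0.85 and 0.66. Libraries with unequal numbers of the same pair correlated as highly, at 0.63 to 0.85. These values show the split between library pairs and do not show a pairing by number. Within-pair differences and their contrast came from a fit of line by library pair. Alternatives covered scaling, filter, variance prior, blocks, averaging, all 15 libraries, edgeR and DESeq2 1.42.0, and leaving out each library. The scripts were tested on simulated data.

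The members, gene lists and rules were chosen with earlier results of these data known. Named genes were, in each direction, the 12 largest non-overlapping calls without a block, filled by size from blocked calls with 1 sign in both pairs. To these came up to 4 called members per list by size, the interaction calls and the 5 highest means. Other named genes complete a list's calls or are familiar members, chosen after their values were seen. Of 758 symbols, 749 are current in RefSeq, and older ones (RARRES3) are printed as deposited. The sequences of the knockdown constructs were not used here.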

Additional observations from a re-analysis of the deposited data

Results flagged for a closer look

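A single library stood apart from the other 3 of its line in 4 of the 178 groups examined, which were the named genes in KD1 and KD2, by Dixon's ratio of its gap to the group's range. For 4 independent values, chance alone marks about 1 group in 20. The libraries fell into pairs, so that rate does not apply here. VIM in KD2 was 12.376 in replicate 4 and 12.94 to 13.05 in the others, all above KD1. HEG1 in KD2 was 10.356 in replicate 3 and 10.04 to 10.09 in the others, all below KD1. EGLN3 in KD2 was 11.004 in replicate 3 and 10.39 to 10.44 in the others. PHGDH in KD1 was 11.059 in replicate 3 and 11.11 in the other 3 libraries, and the gap is small beside the difference between the lines of 0.27.

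The difference between the lines was itself unequal between libraries 3 and 4 and libraries 1 and 2 in 6 genes by the interaction term in limma. The change of the difference was -0.59 for BAMBI (adjusted p = 0.0229), -0.58 for CCND1 (adjusted p = 0.0357), -0.64 for CDKN1A (adjusted p = 0.0199), -0.88 for DUSP4 (adjusted p = 0.0199), -0.64 for MYC (adjusted p = 0.0199) and 0.57 for TGFB2 (adjusted p = 0.0229). What set the library pairs apart was not tested.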

How the results depend on the processing

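The 9 calls without a block became 145 with the replicate block and 152 in edgeR with that block. With the library pair as a block they became 203. They became 119 with the libraries of each pair averaged and the pair as a block, and 0 with that averaging alone. With all 15 libraries in the fit they became 61, in DESeq2 56, after quantile normalization 24 and without a variance trend 15. They ranged from 1 to 9 over the fits that left out a library, and 8 to 13 under the other settings. The 145 blocked calls became 9 without the block, ranged from 63 to 185 when a library was left out, and were 119 to 203 otherwise. Leave-one-out counts ranged from 46 to 259 within libraries 1 and 2, from 58 to 282 within 3 and 4, and from 0 to 181 for the contrast of the pairs. That contrast called 24 genes after quantile normalization, 11 with median-of-ratios scaling and 0 without a trend, with 76 at an unadjusted p under 0.05. Leaving out a library also drops a replicate pair from the blocked fit. The within-pair comparisons and their contrast share a pooled error, so leaving out a library changes that error for both pairs. The cause of the other shifts was not tested.

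Of 89 named genes, those that changed sign were uncalled between the lines and had mean differences near 0. MYC, 1 of these, had opposite signs in the library pairs and was called in the interaction, with a change of -0.64. EIF4EBP1 went from 0.0073 to -0.022 with quantile normalization, -0.012 in edgeR and -0.0026 in DESeq2, and CDK4 from -0.049 to 0 with quantile normalization. With a library left out, the difference ranged from -0.088 to 0.084 for EIF4EBP1, from -0.12 to 0.025 for CDK4, from -0.058 to 0.062 for PGK1, from -0.048 to 0.16 for ENO1 and from -0.074 to 0.082 for MYC.

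Alternatives for the blocked fit, and leaving out KD2 replicate 4 in it, were chosen after seeing the data. Depth limits genes near the floor, such as TLR4, PLCE1, KRT17 and PRLR, and others with low counts, such as IL1B, CXCL10, FGF13, GNG4 and ID2. Each line is 1 construct, knockdown was not measured. Whether the spread between near-duplicate libraries is technical was not tested.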
